A study of Homo sapiens with 6 samples.

Results

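Notch pathway genes were examined in YAPC cells, a human pancreatic cancer line, with and without induced expression of the transcription factor GLI2. The set holds 10 genes taken from the deposited expression table by their symbols: the receptors NOTCH1, NOTCH2 and NOTCH3, the ligands JAG1, JAG2 and DLL1, the target factors HES1, HES4 and HEY1, and the feedback inhibitor NRARP. Each had a row of its own, so 10 of the 25442 genes on the primary chromosomes are described. The study compared 3 RNA-seq libraries of YAPC-iGLI2 cells, which carry GLI2 on the pRetroX-Tight-Puro plasmid, with 3 libraries of YAPC-iEV cells, which carry the same plasmid empty. Both lines also carry rtTA, the doxycycline (Dox)-dependent activator that drives this plasmid, and both were kept in Dox for 6 days, so Dox itself does not separate the groups. The sources used here do not say whether the lines were pools or clones, or whether the libraries of a group came from separate cultures, so the p-values measure only the spread between these libraries. Values are read as FPKM, fragments scaled to transcript length and library size, though the deposited header names no unit. On that reading levels are set side by side between genes.

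Notch receptors are cut after they bind a ligand on a neighbouring cell, and the freed intracellular domain enters the nucleus, where it joins the DNA-binding protein RBPJ and a Mastermind (MAML) protein to switch on transcription. Genes of the HES and HEY families, which encode repressors that bind E box and N box sequences, are the best known targets, and NRARP is a target whose product dampens the same complex. In the pancreas the pathway is known for holding back differentiation of progenitor cells and for its activity in ductal cancer and its precursors.

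GLI2 was at 0.466, 0.412 and 0.344 FPKM in iEV replicates 1, 2 and 3 and at 94.5, 207 and 195 FPKM in iGLI2 replicates 1, 2 and 3, so every library had the level that its label gives. Among markers of ductal epithelium, 6 of 8 averaged 1 FPKM or more. The list summed to 2169 to 2314 FPKM in iEV and 1963 to 2217 FPKM in iGLI2 libraries, but its members moved both ways. MUC1 fell from 20.4 to 24.1 FPKM in iEV to 3.38 to 3.93 FPKM in iGLI2 libraries (log2 difference -2.29, limma adjusted p = 1.3e-04). EPCAM (0.37, limma adjusted p = 0.00709) and CDH1 (0.37, 0.0169) rose, and KRT7, KRT19 and CLDN4 did not pass the limma test. KRT8 and KRT18 are listed at 0 in all 6 libraries, which was not read as absence. Summed fibroblast markers (7 genes) were at 1.51 to 1.63 FPKM in iEV and at 2.40 to 3.09 FPKM in iGLI2 libraries, most of it COL1A1, with DCN at 0. Leukocyte markers (5 genes) were at 4.33 to 5.67 FPKM in iEV and at 1.42 to 2.13 FPKM in iGLI2 libraries, led by CD14, with PTPRC at 0.0343 FPKM or less, and acinar markers (5 genes) at 5.18 to 13.3 FPKM and at 2.71 to 4.40 FPKM, nearly all of it PRSS1. Endothelial markers (5 genes) summed to 0.484 to 0.558 FPKM in iEV and 0.558 to 1.03 FPKM in iGLI2 libraries, with CDH5 at 0.0314 FPKM or less, and the 3 endocrine markers found summed to at most 0.0610 FPKM. The part of these markers in the results was not tested.

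The bases in front of 5 of the genes are shown, because 3 of them (NOTCH3, JAG2 and NRARP) were higher in iGLI2 cells and the other two (HES1 and HES4), the most abundant of the set, did not pass the test. Each run is the 250 bases before the RefSeq transcription start of GRCh38.p14, written 5′ to 3′ on the strand of the gene, and each matched GRCh37, the build of the deposited table, exactly once at the place given. In HES1, HES4 and JAG2 the deposited gene interval begins upstream of this start, inside the window. Capitals mark every exact match, on either strand, to TGGGAA, the core of the RBPJ motif, or to CACGNG, the E box and class C site bound by HES and HEY factors.
HES1, chr3:193853687-193853936, plus strand: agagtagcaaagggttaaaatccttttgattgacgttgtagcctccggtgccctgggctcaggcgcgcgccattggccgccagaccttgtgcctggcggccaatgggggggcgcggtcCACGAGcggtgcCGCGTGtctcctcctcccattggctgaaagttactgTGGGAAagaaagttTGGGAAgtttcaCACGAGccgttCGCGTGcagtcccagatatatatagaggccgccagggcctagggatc
HES4, chr1:935478-935727, minus strand: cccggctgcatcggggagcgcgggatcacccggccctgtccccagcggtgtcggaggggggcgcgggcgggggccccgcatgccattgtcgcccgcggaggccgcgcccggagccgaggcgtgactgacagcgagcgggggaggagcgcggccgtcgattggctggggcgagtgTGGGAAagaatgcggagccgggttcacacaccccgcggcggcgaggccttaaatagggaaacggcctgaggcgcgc
NOTCH3, chr19:15311807-15312056, minus strand: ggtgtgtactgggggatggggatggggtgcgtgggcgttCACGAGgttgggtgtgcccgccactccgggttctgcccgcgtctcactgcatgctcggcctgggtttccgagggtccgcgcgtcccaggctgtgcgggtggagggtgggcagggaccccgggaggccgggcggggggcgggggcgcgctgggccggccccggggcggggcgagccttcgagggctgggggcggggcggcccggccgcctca
JAG2, chr14:105635114-105635363, minus strand: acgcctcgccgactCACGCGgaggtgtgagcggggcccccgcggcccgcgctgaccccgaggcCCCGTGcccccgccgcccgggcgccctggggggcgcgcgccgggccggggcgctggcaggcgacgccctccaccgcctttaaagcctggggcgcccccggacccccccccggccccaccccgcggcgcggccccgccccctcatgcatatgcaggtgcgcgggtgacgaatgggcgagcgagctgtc
NRARP, chr9:140196724-140196973, minus strand: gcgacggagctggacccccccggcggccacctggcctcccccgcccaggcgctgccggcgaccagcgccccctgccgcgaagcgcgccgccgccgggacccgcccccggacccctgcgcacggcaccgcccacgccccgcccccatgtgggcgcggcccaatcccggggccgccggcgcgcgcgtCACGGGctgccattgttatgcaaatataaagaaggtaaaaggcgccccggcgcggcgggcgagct

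The RBPJ core occurs in the HES1 window at 2 places, from 84 and from 70 bases before the start, and in the HES4 window at 1 place, from 76 bases before it. None of the 3 genes that were higher holds it in this window, and neither does the window of NOTCH1, NOTCH2 or JAG1, so that 2 of 8 windows have it against 21.1% of 27305 promoters of the same length. CACGNG was found at 4 places in HES1, at 2 in JAG2 and at 1 each in NOTCH3 and NRARP, in 4 of 8 windows against 26.5% of all promoters. CACNAG, the N box, which can share its letters with CACGNG, was in 2 of 8 windows against 32.0%, and ACCACCC, the core of the GLI motif as recalled here, was in 0 of 8 against 4.19%. Windows of DLL1 and HEY1 are not shown. These are matches of letters, with no measurement of binding behind them.

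**Figure D1:**
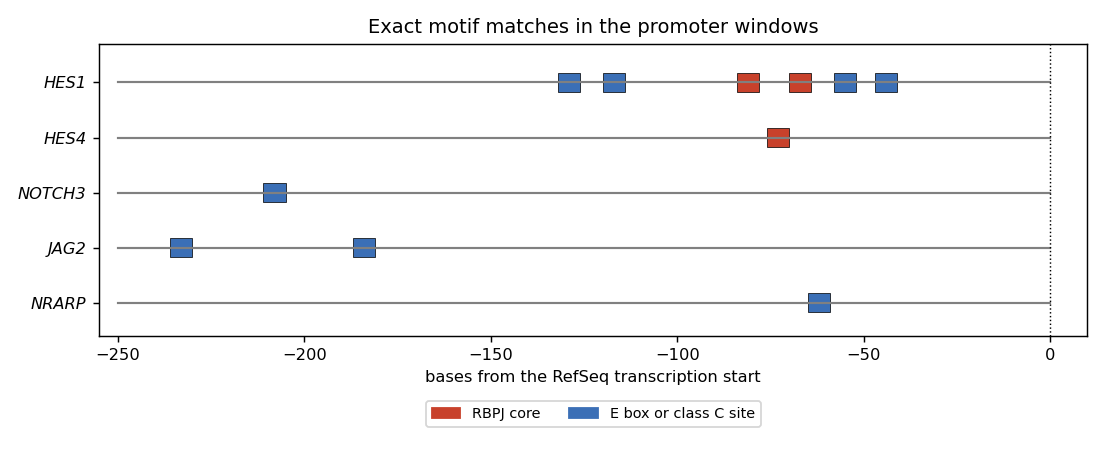
Positions of exact motif matches (boxes, 6 bases wide) in the 250 bases before the RefSeq start of 5 genes, with distance from the start in bases on the x axis. Both RBPJ core matches of HES1 and the one of HES4 lie within 84 bases of the start, and NOTCH3, JAG2 and NRARP have blue boxes only. Blue boxes, labelled E box or class C site, mark any match to CACGNG, and none of them is the E box CACGTG.

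Of the 10 genes, 3 rose and 2 fell in iGLI2 cells. Calls are adjusted p-values below 0.05 from limma's two-sided moderated test on log2(FPKM + 1), with Benjamini-Hochberg adjustment over the 12493 genes that averaged 1 FPKM or more. All 10 passed that filter, and each averaged over 1 FPKM in both groups. NOTCH3, JAG2 and NRARP rose, NOTCH2 and DLL1 fell, and NOTCH1, JAG1, HES1, HES4 and HEY1 did not pass the test. Over all genes tested, 21.9% were called, 10.1% as higher and 11.8% as lower. That split of the calls, 46.0% higher, moved to 59.4% higher when small RNA genes were left out and the libraries rescaled, and the 5 calls among the Notch genes held under that and both other scalings tried. The median log2 fold change was 0.08 over the 10 genes and -0.015 over all genes tested. In the same 5 genes, and in no other of the 10, the groups did not overlap, against 42.0% of all genes tested.

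**Figure D2:**
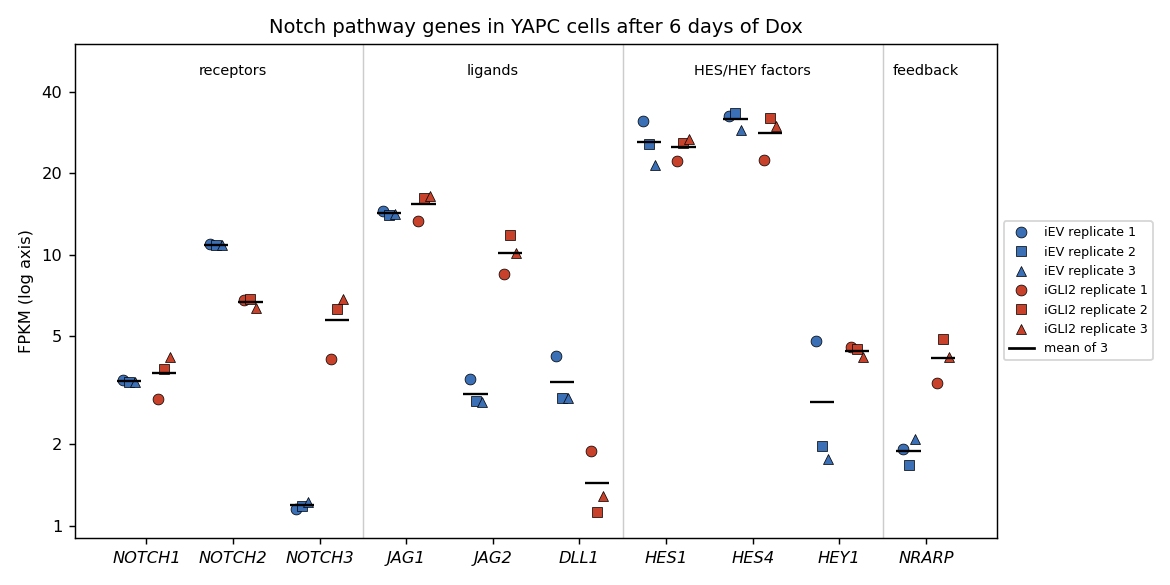
FPKM (log axis) of the 10 Notch genes in each library, with blue for iEV, red for iGLI2, the symbol shape for the replicate number and a bar for the mean of 3. NOTCH3, JAG2 and NRARP are higher and NOTCH2 and DLL1 lower in every iGLI2 library than in any iEV library, and HEY1 of iEV replicate 1, at 4.82 FPKM, sits with the iGLI2 libraries.

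Among the receptors, NOTCH3 (chr19:15270444-15311792, minus strand) had the largest change of the 10 genes. It was at 1.16, 1.18 and 1.23 FPKM in iEV replicates 1, 2 and 3 and at 4.12, 6.29 and 6.84 FPKM in iGLI2 replicates 1, 2 and 3. The iEV libraries were close together, and the lowest iGLI2 library was more than 3 times the highest of them. The ratio of the means was 4.84, and the rise on the log2 scale was 1.60 (SE 0.17, adjusted p = 0.00210, limma). Among all genes tested it ranked 212 by increase.

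NOTCH2 (chr1:120454176-120612317, minus strand), the most abundant receptor in iEV cells, fell. Its values were 11.0, 10.8 and 10.8 FPKM in iEV and 6.78, 6.86 and 6.35 FPKM in iGLI2 replicates 1, 2 and 3, with little spread within either group. It fell by 0.63 on the log2 scale (SE 0.055, adjusted p = 0.00111, limma), and the iEV mean was 1.63 times the iGLI2 mean. NOTCH2 has near-identical copies on the same chromosome that are merged in the table as NOTCH2NL, and this entry fell as well, with 9.44, 10.6 and 9.32 FPKM in iEV and 6.32, 6.82 and 5.64 FPKM in iGLI2 replicates 1, 2 and 3 (log2 difference -0.57, adjusted p = 0.00737, limma). The 250 bases before the NOTCH2 start in GRCh38 match GRCh37 only at 145208859 to 145209108 on chromosome 1, inside the NOTCH2NL entry, so how the fragments were divided between NOTCH2 and its copies is uncertain.

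NOTCH1 (chr9:139388896-139440238, minus strand) was at 3.46, 3.40 and 3.38 FPKM in iEV and at 2.94, 3.80 and 4.20 FPKM in iGLI2 replicates 1, 2 and 3. The iGLI2 libraries lay on both sides of the iEV libraries. Its log2 fold change of 0.064 had a 95% interval of -0.21 to 0.34 (limma adjusted p = 0.725).

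The sum of the 3 receptors was 15.5 ± 0.103 FPKM in iEV and 16.1 ± 1.94 FPKM in iGLI2 libraries (SD over n = 3), with iGLI2 libraries at 13.8, 16.9 and 17.4 FPKM around the iEV range of 15.4 to 15.6 FPKM. Its make-up does not change when all genes of a library are scaled by the same factor, and is given as a description with no test. The uncertain division of fragments between NOTCH2 and its copies applies to these shares as well. NOTCH2 held 70.1% to 70.4% of receptor FPKM in iEV libraries, and 49.0%, 40.5% and 36.5% in iGLI2 replicates 1, 2 and 3. NOTCH3 went from 7.41% to 7.95% up to 29.8%, 37.1% and 39.4%. The share of NOTCH1 was 21.9% to 22.2% in iEV and 21.2% to 24.1% in iGLI2 libraries. In these bulk libraries, fewer cells with a transcript and less transcript per cell cannot be told apart. In iEV cells NOTCH2 was 9.16 ± 0.341 times as abundant as NOTCH3 (SD, n = 3), and in iGLI2 cells 1.22 ± 0.377 times (SD, n = 3), falling below NOTCH3 in iGLI2 replicate 3 at 0.928.

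**Figure D3:**
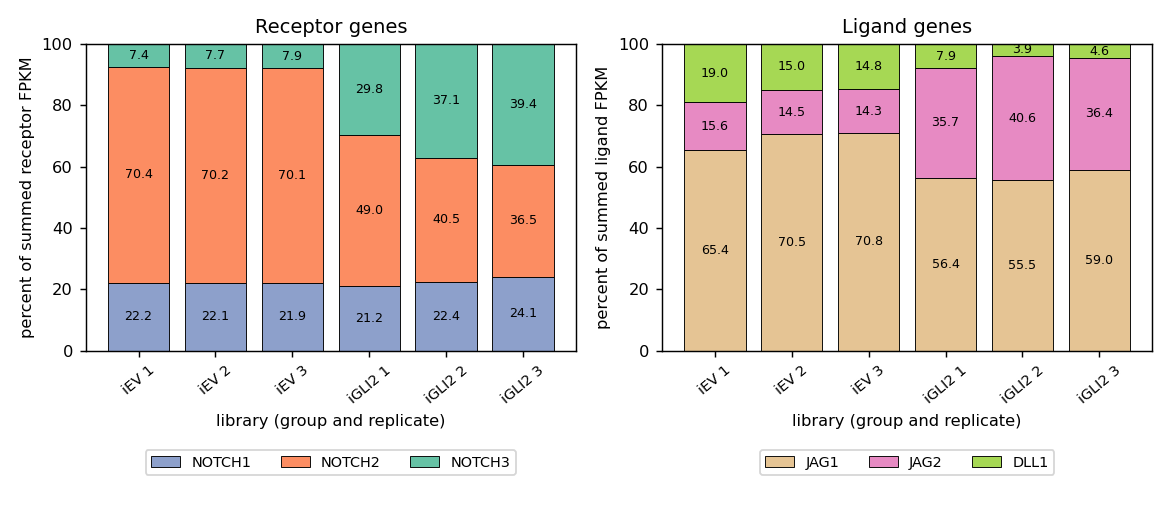
Share of each gene, in percent, in the summed FPKM of the 3 receptors (left) and of the 3 ligands (right), with 1 stacked bar per library and the shares printed in the bars. NOTCH3 grows from at most 7.95% to at least 29.8% of receptor FPKM, and JAG2 from at most 15.6% to at least 35.7% of ligand FPKM.

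Of the ligands, JAG2 (chr14:105607318-105635161, minus strand), a membrane ligand of the Jagged type, was at 3.47, 2.88 and 2.85 FPKM in iEV and at 8.46, 11.8 and 10.2 FPKM in iGLI2 replicates 1, 2 and 3. Each iGLI2 library was more than 2 times the highest iEV library. The means differed 3.31-fold, with a log2 difference of 1.45 (SE 0.13, adjusted p = 0.00126, limma), and JAG2 ranked 261 by increase among all genes tested. Leaving out each library in turn kept the log2 fold change between 1.34 and 1.56. A long non-coding RNA gene of the GENCODE annotation overlaps JAG2 on the same strand, and its fragments may count with it.

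DLL1 (chr6:170591294-170599697, minus strand), a ligand of the Delta type, moved the other way. It was at 4.23, 2.97 and 2.95 FPKM in iEV and at 1.88, 1.12 and 1.29 FPKM in iGLI2 replicates 1, 2 and 3. In both groups replicate 1 was the highest, and the groups did not overlap. It fell by 0.85 on the log2 scale (SE 0.17, adjusted p = 0.0176, limma), and the iEV mean was 2.37 times the iGLI2 mean. This call was lost without iEV replicate 2 (-0.92, adjusted p = 0.0534), iEV replicate 3 (-0.92, 0.0515), iGLI2 replicate 2 (-0.76, 0.0651) or iGLI2 replicate 3 (-0.81, 0.0666) and held without either replicate 1.

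JAG1 (chr20:10618332-10654694, minus strand), the most abundant ligand in both groups, was at 14.5, 13.98 and 14.1 FPKM in iEV and at 13.4, 16.2 and 16.5 FPKM in iGLI2 replicates 1, 2 and 3. The groups overlapped through iGLI2 replicate 1. Its log2 fold change was 0.099, with a 95% interval of -0.12 to 0.32 (limma adjusted p = 0.475). Without iGLI2 replicate 1 it was 0.19 (limma adjusted p = 0.0354).

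Summed over the 3 ligands, FPKM was 20.7 ± 1.37 in iEV and 26.9 ± 2.87 in iGLI2 cells (SD, n = 3 each). JAG2 held 14.3% to 15.6% of it in iEV libraries and 35.7%, 40.6% and 36.4% in iGLI2 replicates 1, 2 and 3. DLL1 went from 14.8% to 19.0% down to 3.85% to 7.92%, and JAG1 from 65.4% to 70.8% down to 55.5% to 59.0%. JAG2 and DLL1 were close in iEV cells, at a ratio of 0.820 to 0.972, while in iGLI2 libraries JAG2 was 4.51, 10.5 and 7.88 times DLL1.

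**Figure D4:**
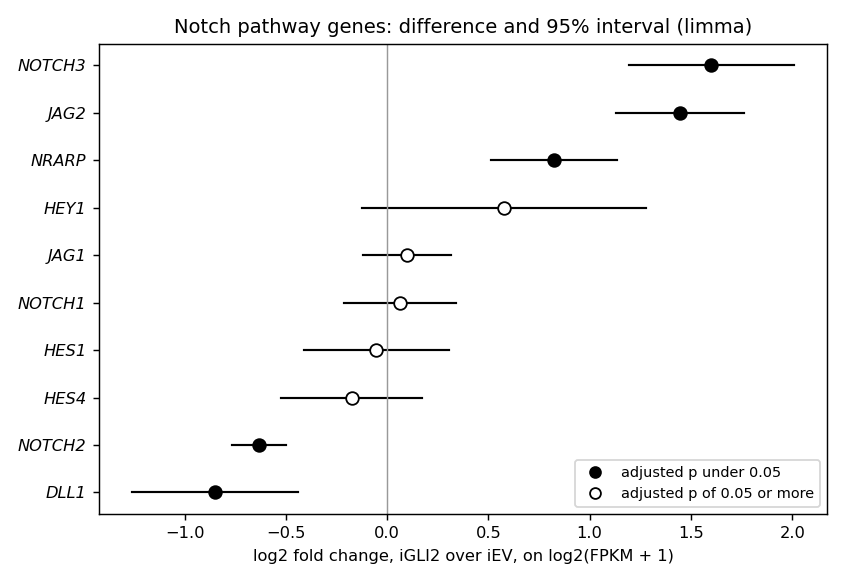
Log2 fold change of iGLI2 over iEV cells on the log2(FPKM + 1) scale for each of the 10 genes, with its 95% interval from limma and filled points where the adjusted p was under 0.05. NOTCH3, JAG2 and NRARP lie to the right of 0 and NOTCH2 and DLL1 to the left, and HEY1 has the widest interval, from -0.12 to 1.28.

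HES1 and HES4, basic helix-loop-helix repressors that are direct targets of Notch in many tissues, had the highest levels of the 10 genes in both groups. HES1 (chr3:193853931-193856401, plus strand) was at 31.1, 25.6 and 21.5 FPKM in iEV and at 22.2, 25.8 and 26.9 FPKM in iGLI2 replicates 1, 2 and 3, so that the iGLI2 libraries lay within the iEV range. Its log2 fold change was -0.052, with a 95% interval of -0.41 to 0.30 (limma adjusted p = 0.829), and 0.023 when the small RNA genes were left out and the libraries rescaled. HES4 (chr1:934342-935552, minus strand) was at 32.4, 33.4 and 28.9 FPKM in iEV and at 22.4, 32.0 and 30.0 FPKM in iGLI2 replicates 1, 2 and 3. Again the groups overlapped, with iGLI2 replicate 1 the lowest library. The log2 fold change of -0.18 had a 95% interval of -0.53 to 0.17 (adjusted p = 0.435, limma).

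HEY1 (chr8:80676245-80680098, minus strand), a related repressor of the same family, was at 4.82, 1.97 and 1.76 FPKM in iEV replicates 1, 2 and 3. In iGLI2 replicates 1, 2 and 3 it was at 4.56, 4.49 and 4.21 FPKM. The iGLI2 libraries were close together, and iEV replicate 1 was above all of them while the other iEV libraries were below. The log2 fold change was 0.58, with a 95% interval of -0.12 to 1.28 (limma adjusted p = 0.209). Without iEV replicate 1 it was 0.92 (limma adjusted p = 0.00388). With that library kept, HEY1 passed in 1 alternative, the replicate block together with rescaling without small RNA genes (0.64, limma adjusted p = 0.0342).

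NRARP (chr9:140194083-140196703, minus strand), a small ankyrin repeat protein that binds the Notch transcription complex and limits it, was at 1.91, 1.68 and 2.08 FPKM in iEV and at 3.37, 4.87 and 4.19 FPKM in iGLI2 replicates 1, 2 and 3. All iGLI2 libraries were above all iEV libraries. The ratio of the means was 2.19 and the log2 difference 0.82 (SE 0.13, adjusted p = 0.00806, limma). With each library left out the highest adjusted p was 0.0409, without iEV replicate 2. In GENCODE a long non-coding RNA gene overlaps NRARP on the opposite strand, as other annotated genes do NOTCH1 and JAG1, and whether strand was used in counting is not given in the sources used here. HES1 was 16.3, 15.3 and 10.3 times as abundant as NRARP in iEV and 6.58, 5.29 and 6.41 times in iGLI2 replicates 1, 2 and 3.

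By mean level, the order in iEV cells was HES4, HES1, JAG1, NOTCH2, NOTCH1, DLL1, JAG2, HEY1, NRARP and NOTCH3. HES4 and HES1 overlapped in range, as did each neighbouring pair from NOTCH1 to NRARP, while HES1 and JAG1, JAG1 and NOTCH2, NOTCH2 and NOTCH1, and NRARP and NOTCH3 were apart. In iGLI2 cells the order was HES4, HES1, JAG1, JAG2, NOTCH2, NOTCH3, HEY1, NRARP, NOTCH1 and DLL1. There HES4 and HES1 overlapped, JAG2 stood apart from both of its neighbours, DLL1 stood below NOTCH1 without overlap, and neighbours from NOTCH2 to NOTCH1 overlapped. NOTCH3 thus went from the 10th to the 6th place and DLL1 from the 6th to the 10th.

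The iGLI2 libraries also differed in GLI2 itself, with replicate 1 at 0.470 of the mean of replicates 2 and 3. In 4 of the 5 genes that passed the test (NOTCH3, JAG2, DLL1 and NRARP), iGLI2 replicate 1 was the iGLI2 library nearest to the iEV mean on the log2 scale, which was so for 46.0% of the 2742 genes called. It was the lowest iGLI2 library in 7 of the 10 Notch genes, against 52.6% of all genes tested, and iEV replicate 1 was the highest iEV library in 7 of 10, against 38.7%. After leaving out small RNA genes and rescaling these counts were 7 of 10 against 39.7% and 8 of 10 against 46.9%. The part of the GLI2 level in these differences was not tested.

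A wider list of 66 genes with known roles in Notch signaling was counted in the same fit. Of these, 50 averaged 1 FPKM or more. Among those, 6 were called higher and 3 lower, near the 21.9% called over all genes. Of the 6, HES5 and MFNG averaged under 1 FPKM in iEV cells and passed the filter only through their iGLI2 values. Their iGLI2 mean therefore had to be the higher, though a call was not forced, which leaves 4 that rose apart from them. DLL3 passed the filter the same way, with means of 0.933 FPKM in iEV and 1.49 FPKM in iGLI2, and was not called. With no filter on low values, 65 genes of the list were tested, with 7 higher and 3 lower. In that fit all genes had 1491 higher and 1526 lower of 20035 tested. None of the 6 γ-secretase genes, which cut the receptor within the membrane, passed, with log2 fold changes from -0.13 to 0.095, and APH1A was the highest of them at 121 FPKM over the 6 libraries. None of the 3 proteases that cut the receptor outside the membrane (FURIN, ADAM10 and ADAM17) passed. In both sets of proteases 0 genes reached an unadjusted p under 0.05 in limma. How many of all genes tested lay under this unadjusted threshold was not counted. RBPJ itself was at 26.5, 21.5 and 20.5 FPKM in iEV and at 32.1, 22.2 and 21.0 FPKM in iGLI2 replicates 1, 2 and 3 (limma adjusted p = 0.688).

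In the nuclear complex, 2 of 8 tested genes fell and none rose, against 11.8% lower and 10.1% higher over all genes tested. With so few genes, this is not read as a direction of the complex. Of the others, 0 were at an unadjusted p under 0.05 in limma. KAT2B, an acetyltransferase recruited by the Notch complex, was at 4.56, 4.09 and 3.83 FPKM in iEV and at 2.34, 1.32 and 1.58 FPKM in iGLI2 replicates 1, 2 and 3 (log2 difference -0.92, adjusted p = 0.00969, limma). MAML2, a Mastermind coactivator, was at 27.8, 24.9 and 23.9 FPKM in iEV and at 19.2, 19.0 and 19.2 FPKM in iGLI2 replicates 1, 2 and 3 (log2 difference -0.40, adjusted p = 0.0133, limma), while its relative MAML1 averaged 12.9 ± 0.517 FPKM in iEV libraries and 12.5 ± 0.425 FPKM in iGLI2 libraries (SD over n = 3). SNW1 had the highest level in this group, at 43.0 FPKM. Among corepressors, 2 of 12 rose, against 10.1% of all genes tested: the deacetylase HDAC2 (log2 fold change 0.42, limma adjusted p = 0.0113) and CTBP2 (0.34, 0.0454). HDAC1, at 83.9 FPKM the highest, did not pass. At an unadjusted p under 0.05, 4 of the 12 corepressors differed, 3 of them higher. The share of all genes at this threshold was not counted, so this is not read as a tilt of the corepressors.

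The Fringe enzymes add sugar to the receptors and thereby tune which ligand they answer to. MFNG rose from 0.269, 0.257 and 0.212 FPKM in iEV to 2.00, 2.18 and 2.095 FPKM in iGLI2 replicates 1, 2 and 3, by 1.31 on the log2 scale in the fit with no filter (adjusted p = 2.97e-04, limma). Its levels were narrow in both groups. LFNG, the most abundant Fringe gene, was at 91.1, 71.3 and 70.8 FPKM in iEV and at 118, 96.1 and 99.9 FPKM in iGLI2 replicates 1, 2 and 3. Its groups did not overlap, and its limma adjusted p was 0.0670. RFNG (limma adjusted p = 0.779) and the glycosyltransferases POFUT1 and POGLUT1 did not pass.

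Of the HES and HEY genes outside the set, HES5 rose from 0.101, 0.218 and 0.274 FPKM in iEV to 1.23, 2.88 and 2.83 FPKM in iGLI2 replicates 1, 2 and 3 (log2 fold change 1.43, limma adjusted p = 0.0136 in the fit with no filter). HEY2 stayed under a mean of 1 FPKM, with 0.0461, 0.0331 and 0.0346 FPKM in iEV and 0.517, 1.39 and 1.19 FPKM in iGLI2 replicates 1, 2 and 3, and with no filter on low values its limma adjusted p was 0.0193. Both were far below HES1 and HES4 in every library. HES6, the highest of these, was at 4.85 FPKM over the 6 libraries and did not pass.

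NEURL1B, a ubiquitin ligase for Notch ligands, rose from 1.33 ± 0.173 to 2.41 ± 0.302 FPKM (SD, n = 3 each, log2 fold change 0.55, limma adjusted p = 0.0163), and MIB1, the highest of these ligases at 25.6 FPKM, did not pass. AAK1, a kinase of endocytosis, rose (0.46, limma adjusted p = 0.0241) and DTX4, of the Deltex ligases, fell (-0.51, limma adjusted p = 0.0150), while DTX3L, the highest in that group at 35.1 to 39.8 FPKM, did not pass. At an unadjusted p under 0.05, 4 of the 8 genes of receptor trafficking and turnover differed, 2 of them higher. So did 2 of the 5 glycosylation genes and 1 of the 3 ligand ubiquitin ligases, all higher. Without the share of all genes at this threshold, these counts are not read as results about the roles. The remaining ligands were low, with DLL3 at 1.21 FPKM and DLL4 at no more than 0.103 FPKM in any library, and DLK2, the highest of the non-canonical ligands, was at 2.60 FPKM. NOTCH4 is merged with GPSM3 in the table and cannot be read by itself. The joint entry was at 36.6 FPKM over the 6 libraries and did not pass (limma adjusted p = 0.198).

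**Figure D5:**
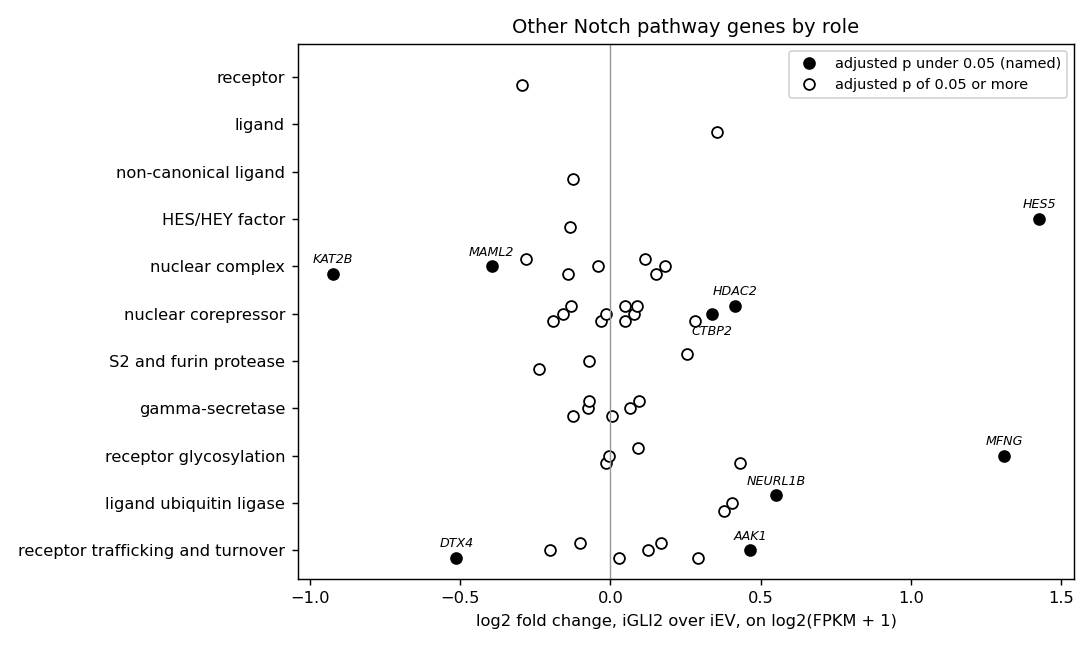
Log2 fold change of iGLI2 over iEV cells on the log2(FPKM + 1) scale for the 50 tested genes of the wider list, 1 row per role, with filled and named points where the adjusted p was under 0.05. KAT2B, MAML2 and DTX4 lie left of 0, the 6 genes called higher lie right of it, and HES5 at 1.43 and MFNG at 1.31, which passed the filter through their iGLI2 values alone, lie farthest out.

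Of the 7 calls other than HES5 and MFNG, KAT2B held when any library was left out. HDAC2 was lost without iEV replicate 2 or 3 (limma adjusted p up to 0.0576) and NEURL1B without replicate 2 of either group (up to 0.0608). DTX4 was lost without iEV replicate 3 or iGLI2 replicate 2 or 3 (up to 0.0662), and MAML2 without iEV replicate 2 or iGLI2 replicate 2 or 3 (up to 0.0600). AAK1 was lost without replicate 2 or 3 of either group (up to 0.0878), and CTBP2 without any library but iEV replicate 1 (up to 0.155), and also with no filter, with the replicate number as a block and with the digit in the sample code as a block.

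The genes whose pattern over the 6 libraries was most like that of NOTCH3, by the root mean square difference of log2(FPKM + 1) after centring each gene on its mean, were ALOX5 (0.0621), the arachidonate 5-lipoxygenase gene, SDK1 (0.0635), which encodes an adhesion protein, and LTBP3 (0.0707), which encodes a TGFβ-binding matrix protein. For JAG2 they were CARD10 (0.0635), CDC42EP4 (0.0709), which encodes an effector of CDC42, and DAPK1 (0.0758), a death-associated kinase gene. All 6 passed the test, but they were picked for likeness to genes that passed it, so this is no separate result. The likeness is a description over 6 libraries that share the division into iEV and iGLI2.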

How the data were processed

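Total RNA from YAPC cells was sequenced as 6 TruSeq libraries. Read trimming by the authors used Trimmomatic, alignment to hg19 used tophat2 and cuffdiff gave the expression values (Cuffdiff 2.1.1 in the submitters' processing notes), of which 1 per gene and library was deposited. The header names no unit, and the deposited values are read as FPKM from their form. The gene annotation and any scaling between libraries are not given in the sources used here. Total FPKM was 981341 to 1082684 in iEV and 803145 to 889555 in iGLI2 libraries. The short gene MIR4461 held 42.6% to 45.4% of the total in iEV and 35.7% to 37.7% in iGLI2 libraries, so the groups differed in both. FPKM keeps no read counts, so no counting error is stated.

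Library names came from the sample labels, and 0 columns were left without a sample. Of 27024 entries, 1252 outside the primary chromosomes and 330 with a lower mean than another entry of the same name were left out. Starts in the table, counted from 0, were raised by 1. The test was limma 3.58.1, run in R 4.3.3 on log2(FPKM + 1), with group as the only term, an intensity trend and Benjamini-Hochberg adjustment (threshold 0.05) over the 12493 genes that averaged 1 FPKM or more. Adding 1 understates the change of low genes, and fold changes are on this scale unless called a ratio of means. An exact permutation test of 3 against 3 libraries cannot go below p = 0.1. The fit was tested on simulated data. Python 3.11.15, pandas 2.3.3, numpy 2.4.6 and matplotlib 3.10.9 made the tables, motif matches and plots. Strands and overlapping genes came from the GENCODE annotation lifted to GRCh37, and promoter windows from RefSeq (GRCh38.p14), used for 8 of the 10 genes.

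The 10 genes, the wider Notch list (written from memory) and the marker lists were chosen with earlier results of these data known. Named from the wider list were all genes that passed the test and, per role, the gene with the highest mean, and RBPJ, MAML1, ADAM10, ADAM17, RFNG, POFUT1, POGLUT1, HEY2, DLL4 and NOTCH2NL were named after their values were seen. The 3 nearest profiles were taken for the 2 genes with the largest change. Alternatives were upper quartile scaling, small RNA genes left out with rescaling, quantile normalization, a pseudocount of 0.1, no filter, a higher filter (5 FPKM), a block for the replicate number or for the digit in the sample code, no trend, an adjusted p under 0.01 and each library left out. Leaving out replicate 1 of both groups was added after seeing the data.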

Additional observations from a re-analysis of the deposited data

How the results depend on the processing

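Over the 6 fits that each left out 1 library, the number of the 10 Notch genes called higher was 3 to 4 and called lower 1 to 2. It was 2 to 10 and 1 to 5 for the wider list, and 608 to 1855 and 615 to 1898 for all genes. A mean of at least 5 FPKM kept 5 of the 10 genes in the test, with 1 higher (JAG2) and 1 lower (NOTCH2). JAG2, with a mean of 3.07 FPKM in iEV, met this filter only through its iGLI2 values. At this filter the wider list had 2 higher and 2 lower of 38 tested. All genes had 824 higher and 1090 lower of 9037 tested. An adjusted p under 0.01 left 3 of the 10 genes higher and 1 lower (NOTCH2), 1 higher and 1 lower in the wider list, and 540 higher and 555 lower over all genes. Without replicate 1 of both groups, an alternative added after seeing the data, 5 of the 10 genes were higher (JAG1 and HEY1 in addition), the wider list had 17 higher and 8 lower, and all genes 2661 higher and 2806 lower.

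Groups share replicate numbers, but deviations from the group means correlated at only 0.204, 0.0919 and 0.0276 for numbers 1, 2 and 3, so the numbers were not taken as pairs. iEV replicates 1 and 3 correlated best with their own number, and replicate 2 with iGLI2 replicate 3 (0.117). With the replicate number as a block, 3 of the 10 genes were higher and 2 lower, the wider list had 8 higher and 5 lower, with CTBP2 lost, and all genes 1809 higher and 2119 lower. The block together with rescaling without small RNA genes gave 4 of the 10 genes higher, with HEY1 at an adjusted p of 0.0342, 16 higher in the wider list and 3010 higher over all genes.

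The log2 fold change of HES1 turned positive under rescaling without small RNA genes, with or without the block (0.023) and without both replicates 1 (0.157), and it ranged from -0.178 to 0.078 with 1 library left out. That of NOTCH1 ranged from -0.022, without iGLI2 replicate 3, to 0.178. Neither gene passed the test in any of these. NOTCH2, NOTCH3, JAG2 and NRARP passed in every alternative that kept them in the test. The 5 FPKM filter kept JAG2 through its iGLI2 values alone. The cause of these shifts was not tested.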
